A study of Mus musculus with 12 samples.

Results

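The contractile and actin cytoskeleton genes described here are 37 named genes of smooth muscle, myofibroblasts and the actin cytoskeleton, with the transcription factor Srf and its cofactor Myocd. They were chosen by symbol, with earlier results of these data known, and all 37 had a row among the 24132 rows of the deposited expression table. Poly(A) RNA had been sequenced from fibroblasts grown from the tail tips of newborn mice, with 2 libraries for each Hotair genotype: knockout, heterozygous and wild type. The mice of all 3 genotypes were backcrossed to C57BL6, to a similarity given by the labels as over 97%. Hotair is a long noncoding RNA of the HoxC cluster, and the series compares cells that lack it, or carry 1 disrupted copy, with wild-type cells; how the allele was made is not given in the labels. The labels do not say whether the 2 libraries of a genotype came from separate animals or cultures, so p-values measure only the spread between libraries, which may be technical.

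Non-muscle cells move and pull on their matrix with bundles of actin filaments and myosin II, which tropomyosin, calponin and caldesmon regulate and which end at focal adhesions. A fibroblast that takes on the muscle actin Acta2 and its companion proteins is called a myofibroblast, the contractile cell of wounds and scars. Many of these genes are controlled by SRF, which binds a DNA element called the CArG box and is switched towards cytoskeletal genes by the MRTF cofactors when free actin monomers are used up. In smooth muscle, Myocd plays the cofactor's part.

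Library depth, recovered from the worth of 1 read in the deposited values, was 46.0 to 48.1 M reads in knockout, 31.2 to 33.3 M reads in heterozygous and 27.9 to 29.6 M reads in wild-type libraries. Hotair was at 0 in both knockout libraries, at 0.213 and 0.172 RPKM in heterozygous and at 0.247 and 0.183 RPKM in wild-type libraries (RPKM is a read count scaled by gene length and library size). Xist, the RNA of the inactive X chromosome, stood at 0.0209 and 0.00606 RPKM in knockout, 4.65 and 4.46 in heterozygous and 0.0414 and 0.0479 in wild-type libraries. In every comparison with heterozygous cells, Hotair genotype and the difference in Xist, which cells of female mice express, therefore cannot be told apart. All 8 fibroblast markers were above 1 RPKM in every library, with Vim the most abundant. Among them Thy1 fell to 49.8% and 65.1% of its wild-type mean in knockout and heterozygous cells, and Pdgfra rose to 254% and 367%. Skeletal muscle, cardiac muscle, endothelial and keratinocyte markers summed to at most 1.13 RPKM per list in each library, and the muscle regulators Myod1 and Myf5 were at 0 in all libraries. Macrophage markers (7 genes) summed to 49.8 and 50.2 RPKM in knockout, to 6.52 and 5.82 in heterozygous and to 8.55 and 7.04 in wild-type libraries, with Emr1 and Itgam below 1 RPKM throughout.

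Most members were lower in both mutant genotypes than in wild type. Of the 35 members that met the filter of 1 RPKM in at least 2 libraries, 27 fell, 3 rose and 5 did not pass the test in knockout against wild type (limma, Benjamini-Hochberg adjustment over 10897 genes, threshold 0.05). Among all genes tested, 67.2% were called in that comparison, 26.6% lower and 40.6% higher. In heterozygous against wild type, 33 of the 35 fell, 0 rose and 2 did not pass, where 52.6% of all genes were called, 17.1% lower and 35.5% higher. The 26 members that fell in both comparisons share their wild-type libraries, so the comparisons are not independent. Because the members were chosen with earlier results of these data known, the counts describe the list. Synpo2 and Myocd lay under the filter, and all 35 others met it also without the knockout libraries.

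The median difference of the 35 members on the log2(RPKM + 1) scale was -0.31 in knockout and -0.31 in heterozygous cells, each against wild type, beside 0.06 and 0.07 over all genes. Members are abundant, and 23 of them had a mean of at least 100 RPKM over all libraries. Among the 425 genes at that level, 54.4% were called lower in knockout and 49.4% in heterozygous cells, with medians of -0.09 and -0.05. Of the 23 members at that level, 20 fell in knockout and 23 in heterozygous cells, with medians of -0.33 and -0.33. Falls of 0.5 or more were found for 11 members in knockout and 11 in heterozygous cells, against 4.56% and 2.44% of all genes. At 100 RPKM or more such falls were 7 of 23 members in knockout and 8 of 23 in heterozygous cells, against 8.47% and 6.35% of the genes at that level. Median scaling moved the median of all genes to -0.02 in knockout and to -0.006 in heterozygous cells, so it lowers the differences in these comparisons slightly. In bulk RNA, fewer cells of a type and less RNA per cell cannot be told apart.

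**Figure D1:**
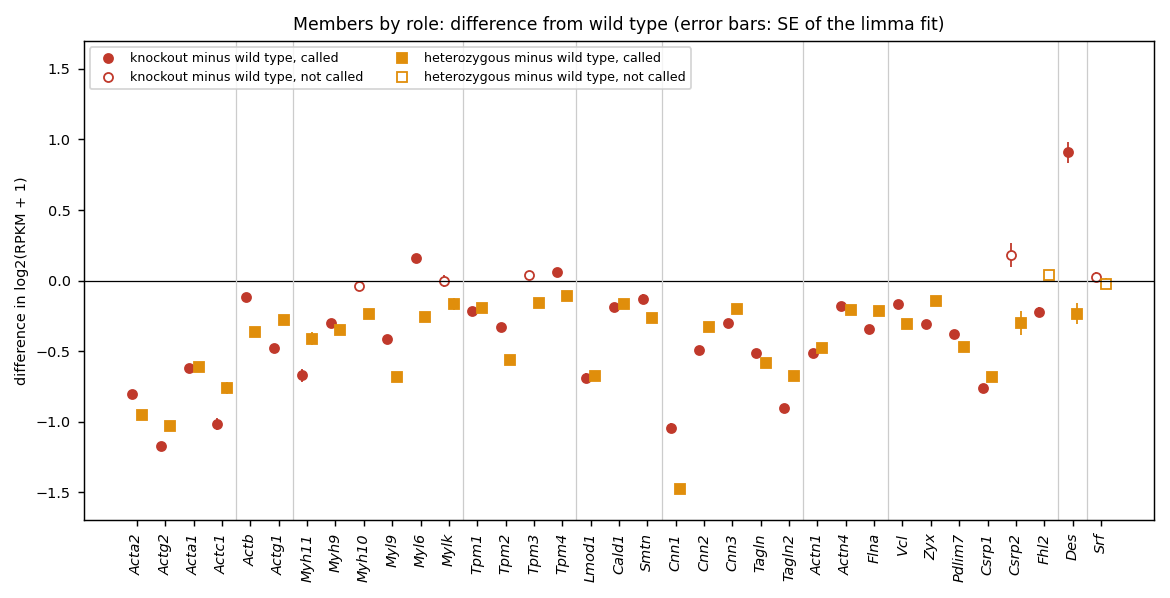
Difference from wild type in log2(RPKM + 1) for the 35 members that met the filter, grouped by role, with SE of the limma fit as error bars. Circles are knockout minus wild type and squares heterozygous minus wild type; filled symbols passed the test. Nearly all symbols lie below 0, and Des in knockout cells stands alone above 0.5.

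CArG boxes were looked for in the promoter windows that RefSeq gives for these genes on build GRCm38.p6, 250 bases before to 50 after the annotated start. A window was found for 31 of the 37 members, and none for Actg2, Actb, Myh11, Tagln, Csrp2 and Myocd. A strict box, a pair of C and a pair of G with 6 bases of only A or T between, on either strand, was present in 9 of the 31 (29.0%), against 1.81% of all 27025 genes with a window. The 9 were Acta1, Actc1, Actg1, Cnn2, Fhl2, Myl6, Myl9, Srf and Vcl. Many of the members were listed because they are known SRF targets, so this share describes the list. Acta2 held no strict box and 2 boxes with 1 G or C among the inner bases, a form found in 9.69% of all genes with a window and searched for after the strict form had been seen. The letters CATTCC, a motif read by TEAD factors, were present on either strand in 12 of the 31 (38.7%), against 16.6% of all genes. Members with a strict box had a median log2 difference of -0.42 in knockout (7 of 9 lower, 1 higher), and tested members with a window and no strict box one of -0.30 (16 of 21 lower, 2 higher). In heterozygous cells the medians were -0.31 with a strict box (7 of 9 lower, 0 higher) and -0.24 without (21 of 21 lower). Over all genes tested, 26.6% were called lower and 40.6% higher in knockout, and 17.1% and 35.5% in heterozygous cells. Acta2 counts here among the members without a strict box.

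The 130 bases before the annotated start are shown for 7 members that carry boxes of either form and moved in different ways: Acta2, Acta1, Actc1, Actg1 and Cnn2 fell in both genotypes, Myl6 rose in knockout, and Srf did not pass the test. Capitals mark strict boxes and those with 1 G or C inside; each sequence reads 5′ to 3′ on the gene's strand. The windows lie at chr19:34255374-34255503 (Acta2, minus strand), chr8:123894776-123894905 (Acta1, minus), chr2:114052876-114053005 (Actc1, minus), chr11:120348496-120348625 (Actg1, minus), chr10:79988470-79988599 (Cnn2, plus), chr10:128493010-128493139 (Myl6, minus) and chr17:46556163-46556292 (Srf, minus). Another Myl6 window, at chr10:128493887-128494016 (minus), held no box of either form and is not shown. In Actc1 the capitals at the first bases belong to a box that begins before the stretch shown.
Acta2: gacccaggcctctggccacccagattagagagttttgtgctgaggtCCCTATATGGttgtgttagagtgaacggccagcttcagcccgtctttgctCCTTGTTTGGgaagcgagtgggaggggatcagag
Acta1: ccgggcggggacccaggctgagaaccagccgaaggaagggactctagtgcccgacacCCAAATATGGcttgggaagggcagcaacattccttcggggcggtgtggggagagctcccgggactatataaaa
Actc1: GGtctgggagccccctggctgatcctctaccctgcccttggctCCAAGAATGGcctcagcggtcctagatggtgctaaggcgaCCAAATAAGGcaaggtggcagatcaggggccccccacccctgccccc
Actg1: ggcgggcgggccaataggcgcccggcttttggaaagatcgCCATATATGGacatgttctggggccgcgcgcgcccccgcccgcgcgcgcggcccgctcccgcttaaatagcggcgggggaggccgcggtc
Cnn2: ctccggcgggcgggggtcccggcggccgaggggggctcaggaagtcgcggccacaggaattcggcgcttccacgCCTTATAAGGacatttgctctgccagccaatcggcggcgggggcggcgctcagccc
Myl6: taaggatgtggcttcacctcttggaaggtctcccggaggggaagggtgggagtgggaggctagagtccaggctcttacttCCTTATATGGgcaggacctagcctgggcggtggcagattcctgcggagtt
Srf: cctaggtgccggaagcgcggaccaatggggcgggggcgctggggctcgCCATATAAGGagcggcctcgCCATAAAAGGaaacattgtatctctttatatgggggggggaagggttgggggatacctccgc

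The 4 muscle actins fell most as a group, by a median of 0.91 on the log2 scale in knockout and of 0.86 in heterozygous cells. Acta2, the smooth muscle actin that marks myofibroblasts, stood at 1137 and 1128 RPKM in knockout, 1018 and 1023 RPKM in heterozygous and 1976 and 1971 RPKM in wild-type libraries. The mutant libraries lay near 1 level and did not overlap with wild type. The log2 difference was -0.80 ± 0.01 (SE) in knockout (adjusted p = 1.11e-08) and -0.95 ± 0.01 in heterozygous cells (adjusted p = 3.37e-09). Actg2, the actin of visceral smooth muscle, was at 162 and 165 RPKM in knockout, 180 and 182 in heterozygous and 373 and 367 in wild-type libraries, so that knockout cells held 44.1% and heterozygous cells 48.9% of the wild-type mean.

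Acta1, the skeletal muscle actin, stood at 158 and 159 RPKM in knockout, 162 and 158 in heterozygous and 244 and 245 in wild-type libraries. The knockout and heterozygous libraries of Acta1 overlapped. Actc1, the cardiac actin, was much lower, at 15.3 and 14.2 RPKM in knockout, 17.8 and 17.6 in heterozygous and 31.4 and 30.1 in wild-type libraries (log2 difference -1.02 ± 0.04 in knockout and -0.76 ± 0.04 in heterozygous cells). These actin genes are close in sequence, and whether their rows share reads was not tested, so their falls are uncertain as separate events. Relative to the sum of Acta2 and Acta1, Acta1 made up 12.3% ± 0.111 in knockout, 13.5% ± 0.262 in heterozygous and 11.0% ± 0.0536 in wild-type libraries (SD, n = 2 each).

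The cytoplasmic actins, which every cell uses, fell less. Actb stood at 4967 and 4986 RPKM in knockout, 4182 and 4189 in heterozygous and 5379 and 5425 in wild-type libraries. Knockout cells thus held 92.1% and heterozygous cells 77.5% of the wild-type mean. Actg1 showed the other order, with 2636 and 2646 RPKM in knockout, 3028 and 3035 in heterozygous and 3685 and 3687 in wild-type libraries. After quantile normalization, which gives equal values to equal ranks, the differences of Actb were 0 in all 3 comparisons, while Actg1 was at -0.32 in knockout and at -0.32 in heterozygous cells against wild type and at 0 between knockout and heterozygous cells.

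Shares within a library do not depend on a linear scaling of it. Muscle actins made up 16.2% and 16.1% of the summed RPKM of all 6 actins in knockout, 16.0% and 16.0% in heterozygous and 22.5% and 22.3% in wild-type libraries. Knockout and heterozygous cells were thus close in this share and both lay below wild type. Actb made up 65.3% and 65.3% of the pair Actb and Actg1 in knockout, 58.0% and 58.0% in heterozygous and 59.3% and 59.5% in wild-type libraries. With 2 libraries against 2, an exact permutation test cannot go below p = 0.333, so shares are given without a test.

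**Figure D2:**
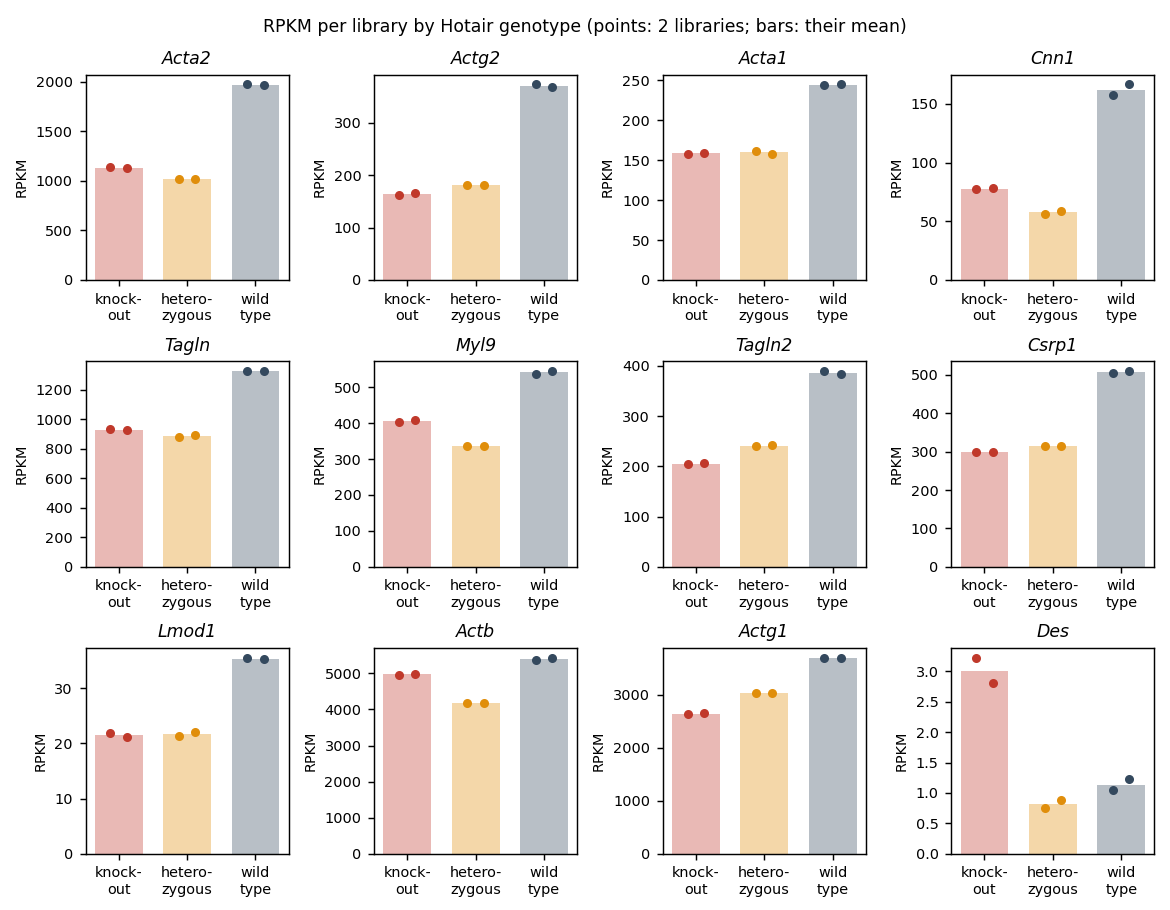
RPKM of 12 members in each library (points) with the mean of the 2 libraries (bars), for knockout, heterozygous and wild-type cells; each axis starts at 0. Acta2 lies at 1137 and 1128 RPKM in knockout and at 1976 and 1971 RPKM in wild-type libraries, while Des is highest in knockout.

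Calponins and transgelins bind actin filaments, and Cnn1 and Tagln among them are markers of smooth muscle. All 5 members of the group fell in both comparisons with wild type, by a median of 0.51 in knockout and of 0.58 in heterozygous cells. Cnn1, the calponin of smooth muscle, stood at 77.8 and 77.9 RPKM in knockout, 56.1 and 59.1 in heterozygous and 157 and 167 in wild-type libraries. The 3 genotypes of Cnn1 did not overlap, and the log2 difference of -1.48 ± 0.03 in heterozygous cells (adjusted p = 2.47e-07) was the largest fall of any member in either comparison. Knockout cells were -1.05 ± 0.03 from wild type.

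Tagln (SM22), a marker of smooth muscle and a direct SRF target, stood at 930 and 926 RPKM in knockout, 876 and 890 in heterozygous and 1324 and 1324 in wild-type libraries. Its non-muscle relative Tagln2 fell further, with 205 and 206 RPKM in knockout, 240 and 242 in heterozygous and 390 and 383 in wild-type libraries, a log2 difference of -0.91 ± 0.01 in knockout cells. Tagln therefore made up a larger share of the pair in knockout (81.9% ± 0.118) and heterozygous libraries (78.5% ± 0.0805) than in wild type (77.4% ± 0.205; SD, n = 2 each). Cnn2, found in many cell types, was at 348 and 350 RPKM in knockout, 385 and 395 in heterozygous and 490 and 490 in wild-type libraries, and Cnn3 kept 81.2% and 87.0% of its wild-type mean in knockout and heterozygous cells. Cnn1 was 14.0% ± 0.0619 of the 3 calponins in knockout, 9.79% ± 0.204 in heterozygous and 19.9% ± 0.678 in wild-type libraries.

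Myosin II is built from heavy chains and a pair of light chains. Myh11, the smooth muscle heavy chain and a late marker of that lineage, was low, at 4.14 and 4.02 RPKM in knockout, 4.94 and 5.22 in heterozygous and 6.97 and 7.20 in wild-type libraries. The genotypes of Myh11 did not overlap, and the log2 difference was -0.67 ± 0.04 in knockout (adjusted p = 1.23e-05) and -0.41 ± 0.04 in heterozygous cells. The main non-muscle heavy chain Myh9 held 81.0% and 78.5% of its wild-type mean of 403 RPKM in knockout and heterozygous cells. Myh10, the second non-muscle chain, fell in heterozygous cells (-0.24 ± 0.03), and its difference in knockout cells was -0.04 ± 0.03 (adjusted p = 0.322).

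The light chains moved apart in knockout cells. Myl9, the regulatory light chain of smooth muscle, stood at 402 and 409 RPKM in knockout, 337 and 336 in heterozygous and 538 and 545 in wild-type libraries. Myl6, the essential light chain shared by smooth muscle and non-muscle myosin, stood at 783 and 792 RPKM in knockout, 598 and 582 in heterozygous and 708 and 703 in wild-type libraries. Myl6 thus rose in knockout (0.16 ± 0.01) and fell in heterozygous cells (-0.26 ± 0.01), and its rise did not pass the test after quantile normalization (0.04, adjusted p = 0.155). Myl9 was 34.0% ± 0.0703 of the pair in knockout, 36.3% ± 0.421 in heterozygous and 43.4% ± 0.321 in wild-type libraries. Mylk, the kinase that activates myosin by phosphorylating this regulatory chain, was at 5.15 ± 0.0857, 4.50 ± 0.183 and 5.16 ± 0.104 RPKM in knockout, heterozygous and wild type, and its difference in knockout cells was -0.004 ± 0.04 (adjusted p = 0.947).

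Of the tropomyosins, which lie along the actin filament, Tpm2 changed most, with 168 and 170 RPKM in knockout, 142 and 144 in heterozygous and 215 and 210 in wild-type libraries. All 4 tropomyosins fell in heterozygous cells. In knockout cells Tpm1 and Tpm2 fell (-0.22 ± 0.01 and -0.33 ± 0.02), Tpm4 rose by 0.06 ± 0.01 and Tpm3 differed by 0.04 ± 0.02 (adjusted p = 0.133). After median scaling the difference was -0.021 for Tpm4 (adjusted p = 0.190) and -0.043 for Tpm3. Tpm2 was 16.2% ± 0.104 of the 4 genes in knockout, 14.8% ± 0.0430 in heterozygous and 18.7% ± 0.297 in wild-type libraries, while Tpm4 was 30.9% ± 0.259, 29.5% ± 0.127 and 27.2% ± 0.0781.

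**Figure D3:**
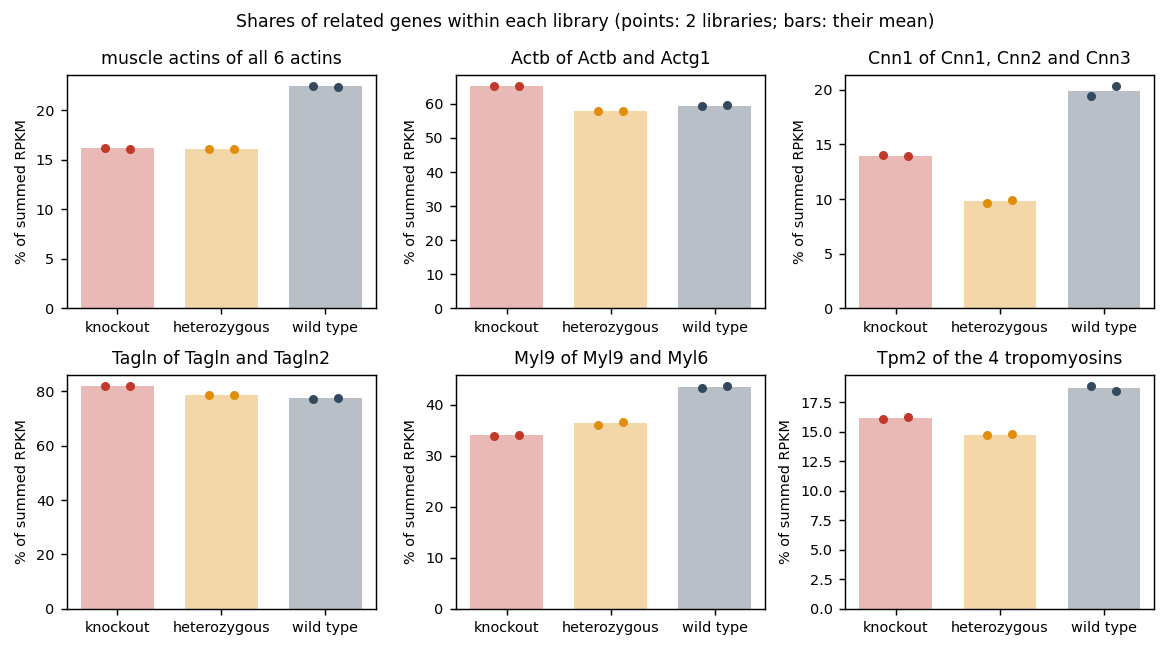
Share of the summed RPKM of related genes within each library (points) with the mean of the 2 libraries (bars), for knockout, heterozygous and wild-type cells; each axis starts at 0. Muscle actins were 16.2% and 16.1% of all actins in knockout, against 22.5% and 22.3% in wild-type libraries, and Cnn1 and Tpm2 had their lowest share in heterozygous libraries.

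Lmod1, which nucleates actin filaments in smooth muscle, stood at 21.9 and 21.2 RPKM in knockout, 21.3 and 22.1 in heterozygous and 35.5 and 35.3 in wild-type libraries. The mutant genotypes overlapped and held 60.9% and 61.4% of the wild-type mean. The actin-binding Cald1 (caldesmon) fell by 0.19 ± 0.01 in knockout and by 0.17 ± 0.01 in heterozygous cells. Smtn (smoothelin) fell by 0.13 ± 0.03 and by 0.26 ± 0.03, and its call in knockout was lost after quantile normalization (adjusted p = 0.116).

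The crosslinkers of actin bundles all fell. Actn1, an alpha-actinin of stress fibres and adhesions, stood at 275 and 277 RPKM in knockout, 283 and 281 in heterozygous and 388 and 399 in wild-type libraries. Actn4, its close relative, kept 88.3% and 86.4% of its wild-type mean in knockout and heterozygous cells. Flna, which joins filaments into a network, was at 316 ± 0.225, 346 ± 0.112 and 401 ± 1.93 RPKM in knockout, heterozygous and wild type (SD, n = 2 each). Flna is X-linked, and the heterozygous libraries were the only ones with Xist above 0.05 RPKM.

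Among adhesion and LIM domain proteins, Csrp1, a LIM protein of smooth muscle, changed most, with 300.2 and 298 RPKM in knockout, 314 and 316 in heterozygous and 506 and 510 in wild-type libraries (log2 difference -0.76 ± 0.01 and -0.69 ± 0.01). Pdlim7 was at 45.2 and 45.9 RPKM in knockout, 42.5 and 42.6 in heterozygous and 59.5 and 59.5 in wild-type libraries. Vcl (vinculin) and Zyx (zyxin), proteins of focal adhesions, also fell in both genotypes, Vcl more in heterozygous (-0.31 ± 0.01) and Zyx more in knockout cells (-0.31 ± 0.01). Fhl2, a LIM-only cofactor, fell in knockout (-0.22 ± 0.04) and differed by 0.04 ± 0.04 in heterozygous cells (adjusted p = 0.377). Csrp2 had the widest spread between libraries, with 27.5 and 32.4 RPKM in knockout, 19.6 and 22.8 in heterozygous and 26.4 and 26.2 in wild-type libraries. Its fall in heterozygous cells (adjusted p = 0.0208) was lost without the filter, without heterozygous replicate 1 and without either wild-type library.

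Des, the intermediate filament protein desmin of muscle, had the largest rise of the 3 members that rose in knockout cells. It stood at 3.22 and 2.81 RPKM in knockout, 0.751 and 0.878 in heterozygous and 1.04 and 1.23 in wild-type libraries, a log2 difference of 0.91 ± 0.07 in knockout cells (adjusted p = 3.47e-05). The knockout libraries lay above all others, at 266% of the wild-type mean, and rest on 155 and 129 reads per kilobase of transcript. Its fall in heterozygous cells (-0.23 ± 0.07, adjusted p = 0.0333) was lost with a pseudocount of 5, without the filter and without heterozygous replicate 1 or wild-type replicate 2. Synpo2, a partner of actin in muscle, was not tested and stood at 0.420 and 0.384 RPKM in knockout, 0.399 and 0.399 in heterozygous and 0.719 and 0.608 in wild-type libraries.

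Knockout and heterozygous cells differed from each other in both directions. Of the 35 members tested, 17 were higher and 11 lower in knockout than in heterozygous cells and 7 did not pass the test, beside 51.8% of all genes called, 26.4% higher and 25.4% lower. The members' median difference was 0.04, against -0.001 over all genes. Members higher in knockout than in heterozygous cells included Des (1.14 ± 0.07), Csrp2 (0.48 ± 0.09), Cnn1 (0.43 ± 0.03), Myl6 (0.41 ± 0.01), Myl9 (0.27 ± 0.01), Actb (0.25 ± 0.01), Tpm2 (0.24 ± 0.02) and Acta2 (0.15 ± 0.01). Members lower in knockout included Fhl2 (-0.26 ± 0.04), Myh11 (-0.26 ± 0.04), Actc1 (-0.25 ± 0.04), Tagln2 (-0.23 ± 0.01), Actg1 (-0.20 ± 0.01), Zyx (-0.17 ± 0.01), Cnn2 (-0.16 ± 0.01) and Actg2 (-0.15 ± 0.02). The calls of Myh9 (0.04) and Mylk (0.16) were each lost when knockout replicate 1, knockout replicate 2 or heterozygous replicate 1 was left out, that of Myh9 also without heterozygous replicate 2, that of Pdlim7 (0.09) without knockout replicate 2 and that of Smtn (0.14) without knockout replicate 1.

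**Figure D4:**
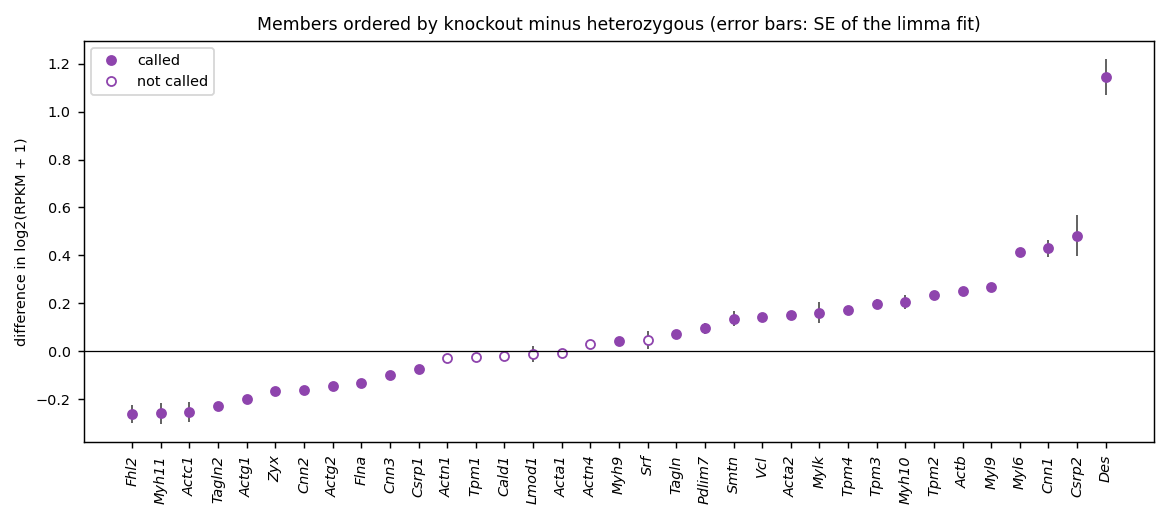
Difference between knockout and heterozygous cells in log2(RPKM + 1) for the 35 members that met the filter, ordered by size, with SE of the limma fit as error bars; filled points passed the test. The 17 members higher in knockout end with Des at 1.14, and the 11 lower ones begin with Fhl2 at -0.26.

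Counted by the order of the genotype means, 13 members had knockout lowest, heterozygous between and wild type highest, with no overlap of libraries, among them Actg2, Actc1, Actg1, Myh11, Tagln2, Cnn2 and Flna. They were 37.1% of the 35 members tested, against 12.2% of all genes tested and 30.1% of genes at 100 RPKM or more. Another 12 had heterozygous lowest, knockout between and wild type highest, again with no overlap, among them Acta2, Actb, Tagln, Cnn1, Myl9, Tpm2 and Vcl (34.3%, against 3.67% of all genes and 10.6% at that level). In 5 members, Myl6, Tpm3, Tpm4, Csrp2 and Des, knockout lay above wild type and heterozygous below both (14.3%, against 3.08% and 8.24%). These orders rest on means and non-overlap of libraries, and not every step passed the test. Knockout against wild type did not pass for Tpm3, Csrp2 and Myh10. Knockout against heterozygous did not pass for Tpm1, Cald1, Actn1 and Actn4. Wild type had the lowest mean for 0 of the 37 members, against 49.6% of all genes and 28.7% of genes at 100 RPKM or more. Member shares cover all 35 tested members, of which 23 had a mean of at least 100 RPKM. The 37.1% for knockout lowest and wild type highest lay close to the 30.1% of genes at that level.

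Srf and Myocd are the regulators among the members. Srf stood at 25.2 and 24.8 RPKM in knockout, 23.3 and 25.0 in heterozygous and 24.7 and 24.4 in wild-type libraries, and the log2 difference was 0.03 ± 0.04 in knockout (adjusted p = 0.554) and -0.02 ± 0.04 in heterozygous cells (adjusted p = 0.661). The heterozygous libraries overlapped with both other genotypes. Myocd was close to absent, at 0.0487 and 0.0501 RPKM in knockout, 0.0638 and 0.0365 in heterozygous and 0.0523 and 0.0905 in wild-type libraries, or 1.14 to 2.52 reads per kilobase of transcript in each library. A count of 3 reads over 1 kilobase corresponds to 0.0624 to 0.108 RPKM, so no difference in Myocd was detectable at this depth.

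A list of 9 SRF cofactors, ternary complex factors and further transcription factors held Mkl1 and Mkl2, Elk1, Elk3 and Elk4, Klf4, Tead1 and Foxo4, which were tested, and Gata6, which was not. Of the 8 tested, 5 rose and 0 fell in knockout, and 6 rose and 0 fell in heterozygous cells. Among all genes tested, 40.6% were called higher and 26.6% lower in knockout, and 35.5% higher and 17.1% lower in heterozygous cells. The 5 were Mkl1, Mkl2, Elk4, Klf4 and Tead1, and Elk3 passed the test in heterozygous cells in addition. Mkl1 and Mkl2, which encode the MRTF cofactors, rose by 0.22 ± 0.03 and 0.29 ± 0.04 in knockout cells, Elk4, a ternary complex factor, by 0.29 ± 0.05, and Klf4, a repressor of smooth muscle genes, by 0.40 ± 0.06. Klf4 stood at 7.46 ± 0.0772, 9.20 ± 0.234 and 5.41 ± 0.582 RPKM in knockout, heterozygous and wild type. Immediate-early genes, the growth factor side of SRF control, rose more often than they fell. Of 9 tested, 6 rose and 1 fell in knockout, and 5 rose and 0 fell in heterozygous cells, with medians of 0.35 and 0.19. These counts stand beside the same 40.6% and 35.5% of all genes called higher. Egr1, a zinc finger factor of this group, stood at 52.5 ± 0.0294, 39.5 ± 1.76 and 28.4 ± 0.302 RPKM in knockout, heterozygous and wild type, and Egr3 at 10.3 ± 0.539, 5.89 ± 0.398 and 4.40 ± 0.0980. Fosl1 and Junb rose by 0.35 ± 0.03 and 0.30 ± 0.03 in knockout cells. Over all genes, 60.4% of the calls in knockout and 67.5% of those in heterozygous cells were rises, against 47.2% and 45.5% after median scaling.

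Further genes of the contractile machinery were counted by list. Of 25 tested focal adhesion and LIM proteins, 18 fell and 5 rose in knockout and 18 fell and 4 rose in heterozygous cells, with medians of -0.22 and -0.24. Among all genes tested, 26.6% were called lower and 40.6% higher in knockout, and 17.1% lower and 35.5% higher in heterozygous cells. The same shares apply to the myosin chains below. Pdlim1, a LIM partner of alpha-actinin, stood at 64.1 ± 0.810, 80.0 ± 0.608 and 113 ± 0.951 RPKM in knockout, heterozygous and wild type, and Fhl1 at 68.0 ± 0.547, 59.2 ± 0.652 and 110 ± 0.643. The adhesion adaptor Parva fell by 0.57 ± 0.02 in knockout cells, whereas Lpp of the same list rose by 0.69 ± 0.03. Of 7 further myosin chains tested, 5 fell and 1 rose in knockout and 5 fell and 0 rose in heterozygous cells, including the regulatory light chains Myl12a (-0.19 ± 0.02 in knockout) and Myl12b (-0.38 ± 0.02), the unconventional myosin Myo1c (-0.46 ± 0.02) and the heavy chain Myh14 (-0.49 ± 0.06).

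Of 7 tested genes of the myosin phosphatase, which relaxes smooth muscle, and of its regulators, inhibitors included, 4 rose and 1 fell in knockout and 3 rose and 2 fell in heterozygous cells, beside the 40.6% and 35.5% of all genes called higher. The catalytic subunit gene Ppp1cb rose by 0.42 ± 0.03, the targeting subunit Ppp1r12a by 0.50 ± 0.04 and the upstream kinase Prkg1 by 0.72 ± 0.05 in knockout cells, while the alternative targeting subunit Ppp1r12c fell by 0.44 ± 0.03. The other riser in knockout cells was the inhibitor Ppp1r14b (0.10 on the log2 scale), which fell in heterozygous cells (-0.09).

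**Figure D5:**
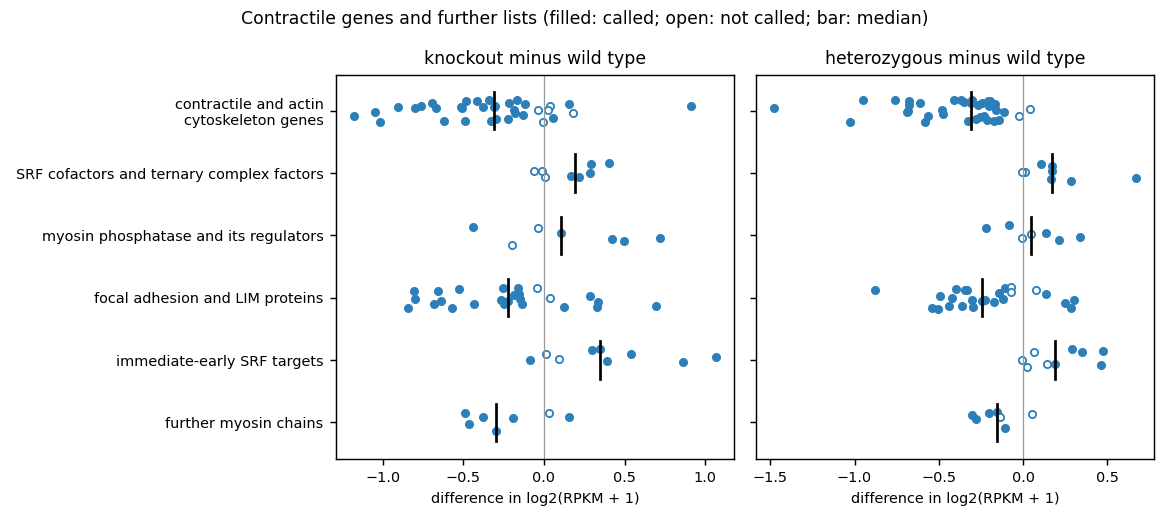
Difference from wild type in log2(RPKM + 1) for the tested contractile and actin cytoskeleton genes and 5 further lists, left for knockout and right for heterozygous cells. Each point is a gene, filled where it passed the test; the bar is the list's median, -0.31 for the contractile genes and 0.35 for immediate-early targets in knockout.

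Markers of other cell types were set beside these differences. The summed macrophage markers, as given above, were highest in knockout and lowest in heterozygous libraries. The low heterozygous sum did not hold for each gene. Lyz2 stood at 1.23 RPKM in heterozygous and 3.13 RPKM in wild-type cells. Cd68 was higher in heterozygous cells (1.51 against 0.929 RPKM), as was Csf1r (0.706 against 0.487 RPKM). Tyrobp and Laptm5 did not pass the test between these genotypes. Chondrocyte and bone markers (5 genes, 4 of them below 1 RPKM throughout) summed to 6.85 and 7.40 RPKM in knockout, 7.24 and 7.02 in heterozygous and 3.48 and 3.74 in wild-type libraries, so they were higher in both genotypes in which the contractile members were lower. Sox9, a regulator of cartilage, made up most of these sums and rose by 0.61 ± 0.05 in knockout and by 0.68 ± 0.05 in heterozygous cells. Pericyte and vascular smooth muscle markers (8 genes) summed to 40.3 and 41.2 RPKM in knockout, 47.8 and 48.9 in heterozygous and 42.5 and 42.1 in wild-type libraries, with Rgs5, Abcc9 and Kcnj8 below 1 RPKM throughout. Pdgfrb made up most of these sums, at 26.0 ± 0.0715, 34.0 ± 0.497 and 27.8 ± 0.628 RPKM in knockout, heterozygous and wild type. Within that list Mcam was at 3.11 and 3.39 RPKM in knockout, 6.73 and 7.06 in heterozygous and 6.98 and 7.56 in wild-type libraries. Cspg4, Notch3 and Ednra went the other way, with their highest means in knockout. Library depth was highest in knockout. The part of these cell types, of the changes in Thy1 and Pdgfra and of depth in the contractile values was not tested.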

How the data were processed

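The 6 RNA-seq libraries were analysed, and the 6 ChIP-seq samples of the series were not analysed here. The authors' deposited table holds 1 value per gene symbol and library, taken from coverage tracks by its column names. Its header gives no unit. The deposited values were taken as RPKM because low values multiplied by gene length fall on multiples of 1 read, which also gave each library's depth; intervals from depth cover counting error only. The submitters' processing notes name TopHat as a tool and mm9 as the build. How reads shared by related genes were handled, the gene models and the use of strand are not given in these sources.

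Values entered as log2(RPKM + 1), which understates changes of low genes, for the 10897 genes that reached 1 RPKM in 2 or more libraries. limma 3.58.1 (R 4.3.3) fitted 1 mean per genotype with a trended variance and 3 residual degrees of freedom. Tests were two-sided, p-values were adjusted by Benjamini-Hochberg, and "called" means an adjusted p under 0.05. The procedure was run on simulated data in which few genes changed, so its error rate where most genes are called was not tested. RPKM and shares carry the SD of 2 libraries, log2 differences the SE of the fit. Members and lists were chosen with earlier results of these data known. Values in every library are given mainly for members called with a difference of 0.4 or more and for Acta2, Actb, Actg1, Srf and Myocd, and each further list is shown by up to 4 genes, those of smallest p for the knockout. Synpo2, Thy1, Pdgfra, Sox9, Mcam, Cspg4, Pdgfrb, Notch3, Ednra, Tead1, Elk3, Ppp1r14b, Lpp, Lyz2, Cd68, Csf1r, Tyrobp and Laptm5 were named after their values were seen. Protein sequences were not used. A list of actin turnover genes and 1 gene of another list are not reported here.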

Additional observations from a re-analysis of the deposited data

How the results depend on the processing

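Over 9 alternatives with all libraries and 6 that leave out a library, the members' calls ranged from 26 to 28 lower and 2 to 4 higher in knockout against wild type, from 30 to 34 lower with 0 higher in heterozygous against wild type, and from 10 to 12 lower and 14 to 17 higher in knockout against heterozygous. Of the members called, 26 of 30, 29 of 33 and 20 of 28 kept their call in every alternative. With the replicate number as a block, the counts were 27 lower and 4 higher, 33 lower and 0 higher, and 11 lower and 17 higher; same-numbered libraries did not deviate together (correlations of -0.06, -0.09 and 0.06). Signs turned for small differences. In knockout against wild type, median scaling gave -0.0427 for Tpm3, -0.0211 for Tpm4 and -0.0529 for Srf, and Mylk ranged from -0.0210 to 0.0135 when a library was left out. In heterozygous against wild type, Fhl2 was -0.0338 after median scaling and ranged from -0.00813 to 0.0903, and Srf from -0.0689 to 0.0266, when a library was left out. In knockout against heterozygous, quantile normalization gave 0.0385 for Lmod1 and -0.00562 for Tagln, and leaving out a library gave -0.0373 to 0.0143 for Lmod1 and -0.0282 to 0.00998 for Acta1. The cause was not tested. A library left alone in its genotype was assumed to vary like the other genotypes. Higher calls over all genes made up 60.4% in knockout and 67.5% in heterozygous against wild type, against 47.2% and 45.5% after median scaling and 46.7% and 51.1% after quantile normalization. In heterozygous cells 3865 genes were called higher, against 2371, 2397 and 2280 after median scaling, after quantile normalization and at a minimum of 5 RPKM, and 1864 lower, against 2839 after median scaling; that minimum gave 2291 in place of 4421 higher in knockout against wild type, and 1611 in place of 2880 against heterozygous, where leaving out knockout replicate 2 gave 1902. In knockout against wild type 2903 genes were called lower, against 3891 after median scaling and 3712 after quantile normalization. The all-gene shares set beside the member counts therefore depend on the scaling. Shares from reads not divided by length were not run.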
